A study of Lolium arundinaceum with 18 samples.

Results

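Genes of auxin response and auxin transport were examined in leaves of tall fescue (Festuca arundinacea, listed as Lolium arundinaceum), a cool-season turf grass. They were chosen by their descriptions: a unigene (the longest transcript of an assembled gene) was taken when its protein description held the word auxin, SAUR, Aux/IAA or GH3 in any case. This rule found 121 of the 109684 unigenes, or 121 of the 42440 with a description. By their descriptions they comprised 45 auxin response factors (ARF), 35 Aux/IAA proteins, 20 SAUR proteins, 12 carriers, 4 GH3 enzymes and 5 others. Both groups of seedlings without particles were controls: CK was sprayed with double-distilled water and kept at 65 to 75% of field capacity, and DS was kept at 35 to 45%. The groups Si NPs (silicon nanoparticles, 300 mg/L) and CNCs (cellulose nanocrystals, 100 mg/L) were sprayed on the leaves at the higher water content. The groups DS_Si NPs and DS_CNCs received the same sprays at the lower one. All leaves were collected on day 20, with 3 libraries in each of the 6 groups. Tween-20 is named only for the particle sprays and no spray is named for DS, so the particles cannot be told apart from the surfactant or, under drought, from being sprayed, and drought cannot be told apart from the absence of a water spray between CK and DS.

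Auxin (indole-3-acetic acid) is the growth hormone that sets cell expansion, organ formation and the bending of shoots and leaves. In its nuclear pathway, ARF proteins bind DNA and switch target genes, Aux/IAA proteins hold the ARFs in check, and auxin triggers the destruction of the Aux/IAA proteins. The genes for Aux/IAA, SAUR and GH3 proteins are themselves classic early auxin targets: SAUR proteins promote cell expansion, and GH3 enzymes join auxin to amino acids and so lower the free pool. Carriers of the AUX1/LAX type bring auxin into cells and PIN carriers let it out, which gives auxin its directed flow.

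The libraries held 16175624 to 26102122 estimated counts each, with a median of 18217094. CK 3 stood apart: it lay between CK 1 and CK 2 in 95.5% of the 2376 unigenes that differed more than 8-fold between those 2, against 12.8% to 64.2% for the other libraries within their groups. Whether CK 3 was independent of the other 2 CK libraries was not tested. It is part of the spread behind every p-value, since all groups share 1 fit. Without it, 2187 of all tested unigenes were called between DS and DS_CNCs, beside 3245 with it. Comparisons with CK, whose mean it also enters, are therefore given without CK 3 as well. The leaf label fitted the photosynthesis list (82 unigenes of photosystem subunits, chlorophyll-binding proteins and the small Rubisco subunit), which summed to 53872 to 130783 TPM in every library. Lists for roots (5 unigenes, 20.5 to 36.4 TPM) and for flowers and seeds (33 unigenes, 202 to 339 TPM) stayed low. A fungal list matched 1 plant protein and is void. The study states 3 repeats of each treatment, and 3 biological replicates for its PCR assay, but the sources used here do not tie each library to a separate pot, so p-values measure the spread between these libraries, which may be technical. In whole leaves, fewer cells of a type and less RNA per cell cannot be told apart.

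The family names were compared with the other annotations. The AUX_IAA domain was the protein family listed for all 32 Aux/IAA members that had a Pfam entry, and all 35 carried the KEGG name of an Aux/IAA protein. Similarly, 19 of 20 SAUR members had the Auxin_inducible domain, all 4 GH3 members the GH3 domain, and 37 of 45 ARF members the KEGG name of an ARF. Among the 12 carriers, 9 had a Pfam entry and all 9 entries fitted the family. The KEGG name of the family was given to 12 of 20 SAUR members and 3 of 12 carriers only, and 8 of the 35 Aux/IAA members carried the transcription factor label ARF. The 3 members described as 5NG4, counted among the others, had the EamA domain instead, and the protein match of DN24620_c0_g1 in SwissProt was a WAT1-related protein. In 6 cases a pair of members shared an assembly cluster, and 25 Aux/IAA and 33 ARF members had more than 1 transcript, so reads of near-identical copies could be split between unigenes and single levels are uncertain to that extent.

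Most members were weakly expressed. TPM, a level scaled for transcript length and for the size of the library, averaged over 10 in 24 members, between 1 and 10 in 72 and under 1 in 25. The highest means were 44.3 TPM for ARF4 DN5490_c0_g1, 41.2 TPM for IAA13 DN37141_c0_g1, 40.6 TPM for SAUR50-like DN3008_c0_g1 and SAUR71-like DN7338_c0_g1, and 39.9 TPM for IAA6-like DN3952_c0_g1. The 3 strongest SAUR members made up 75.9% of the summed SAUR level, while the 3 strongest ARF and Aux/IAA members made up 33.3% and 31.1%. No GH3 or carrier member averaged over 10 TPM, the strongest being GH3.4 DN9117_c1_g1 at 2.02 TPM and auxin transporter-like 1 DN10163_c0_g1, an influx carrier, at 9.94 TPM. A filter on low counts left 96 members for testing: 35 ARF, 31 Aux/IAA, 14 SAUR, 10 carriers, 1 GH3 and all 5 others. The 25 untested members were short fragments in the main, with a median length of 244 bases against 974.5 bases for those tested.

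The summed level of the 121 members was highest in the CNCs group. It was 768, 879 and 859 TPM in the CK libraries, 824, 789 and 886 TPM in Si NPs, and 1155, 1076 and 1130 TPM in CNCs. Under drought it was 877, 821 and 796 TPM in DS, 793, 638 and 744 TPM in DS_Si NPs, and 1024, 896 and 1095 TPM in DS_CNCs. Thus all CNCs libraries lay above all CK and Si NPs libraries, and all DS_CNCs libraries above all DS and DS_Si NPs libraries. No test was run on these sums. Many single unigenes lay the same way: 22.5% of all tested unigenes were higher in CNCs than in CK without overlap, and 8.93% lower. Against Si NPs these shares were 24.1% and 4.27%. Under drought, DS_CNCs was higher than DS in 18.4% and lower in 12%, and against DS_Si NPs in 7.2% and 2.99%. The order of the sums is one of TPM. In the fit on counts, the median log2 fold change of the 96 tested members from CK to CNCs was 0.19. Over all tested unigenes it was 0.08. From Si NPs to CNCs these medians were 0.14 and 0.04. They were 0.52 and 0.10 from DS to DS_CNCs, and 0.11 and -0.02 from DS_Si NPs to DS_CNCs.

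The families shared this order unequally. Aux/IAA members summed to 334 to 391 TPM in CK and 475 to 506 TPM in CNCs, ARF members to 268 to 353 TPM and 342 to 420 TPM (which overlapped), and carriers to 26.7 to 34.9 TPM and 50.2 to 57.1 TPM. SAUR members summed to 90.7 to 106 TPM in CK, 131 to 167 TPM in Si NPs and 144 to 185 TPM in CNCs, so that both particle groups lay above CK without overlap. The Aux/IAA sums of DS (368 to 403 TPM) overlapped those of CK and of DS_CNCs (325 to 499 TPM). GH3 sums were 3.56 to 7.95 TPM in CK and 3.36 to 8.06 TPM in CNCs, both overlapping the 7.22 to 9.13 TPM of DS. In Si NPs they were 2.31 to 3.12 TPM, below CK, CNCs and DS without overlap. DS_Si NPs (1.03 to 3.75 TPM) and DS_CNCs (0.21 to 3.83 TPM) lay below DS without overlap but overlapped CK and CNCs.

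Markers of other tissue states moved with the CNCs group. A list of 119 dividing-tissue unigenes (histones, cyclins and replication proteins) summed to 3282 to 3878 TPM in CK and 4768 to 5556 TPM in CNCs, and the photosynthesis list to 70532 to 119161 TPM in CK and 53872 to 62163 TPM in CNCs, both without overlap. In DS and DS_CNCs the dividing-tissue sums were 3424 to 4305 TPM and 3182 to 4702 TPM and overlapped. The part of these lists in the auxin levels was not tested.

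**Figure D1:**
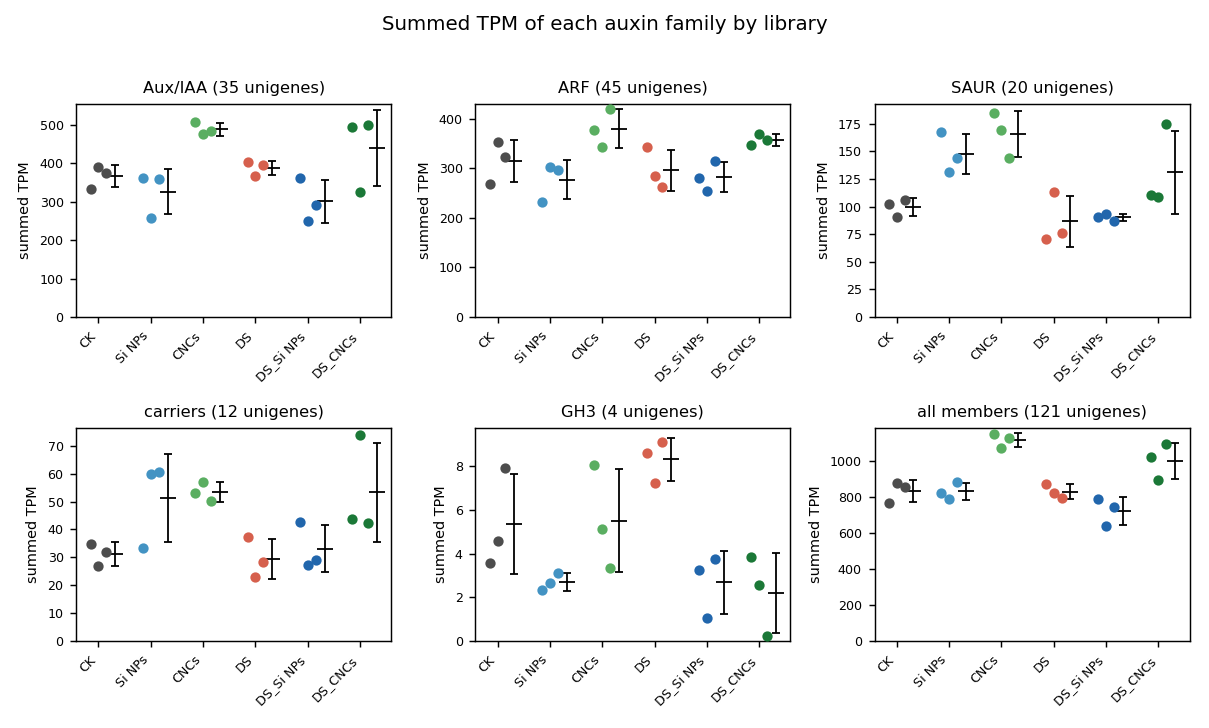
Summed TPM of 5 auxin families and of all 121 members (vertical axes, from 0) in the 6 groups (horizontal axes). Each point is 1 library, and the black marks are the mean and SD of 3 libraries. The CNCs libraries (1076 to 1155 TPM over all members) lie above the CK libraries (768 to 879 TPM), and GH3 sums in DS (7.22 to 9.13 TPM) overlap those of CK (3.56 to 7.95 TPM).

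Over all 6 groups together, 18 of the 96 tested members (18.8%) differed at an adjusted p below 0.05 in the F test of edgeR's quasi-likelihood fit, against 12.6% of all tested unigenes. These were 6 Aux/IAA, 6 ARF and 4 SAUR members, 1 carrier and the auxin-binding protein DN8020_c0_g1. Without CK 3 the count was 7 of 104 tested, and without DS 2 it was 9 of 104, while the share of all tested unigenes fell to 4.09% and 5.26%. In each comparison that follows, a member is called when its Benjamini-Hochberg adjusted p is below 0.05 and its log2 fold change is above 2 in size. The 9 comparisons gave 21 such calls in 13 members, of which 5 members were called more than once. Ranges of TPM without overlap are given too, but were common: 10.8% of all tested unigenes were higher and 15% lower in DS than in CK. From DS, these shares were 11.7% and 11.7% in DS_Si NPs, and 18.4% and 12% in DS_CNCs.

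**Figure D2:**
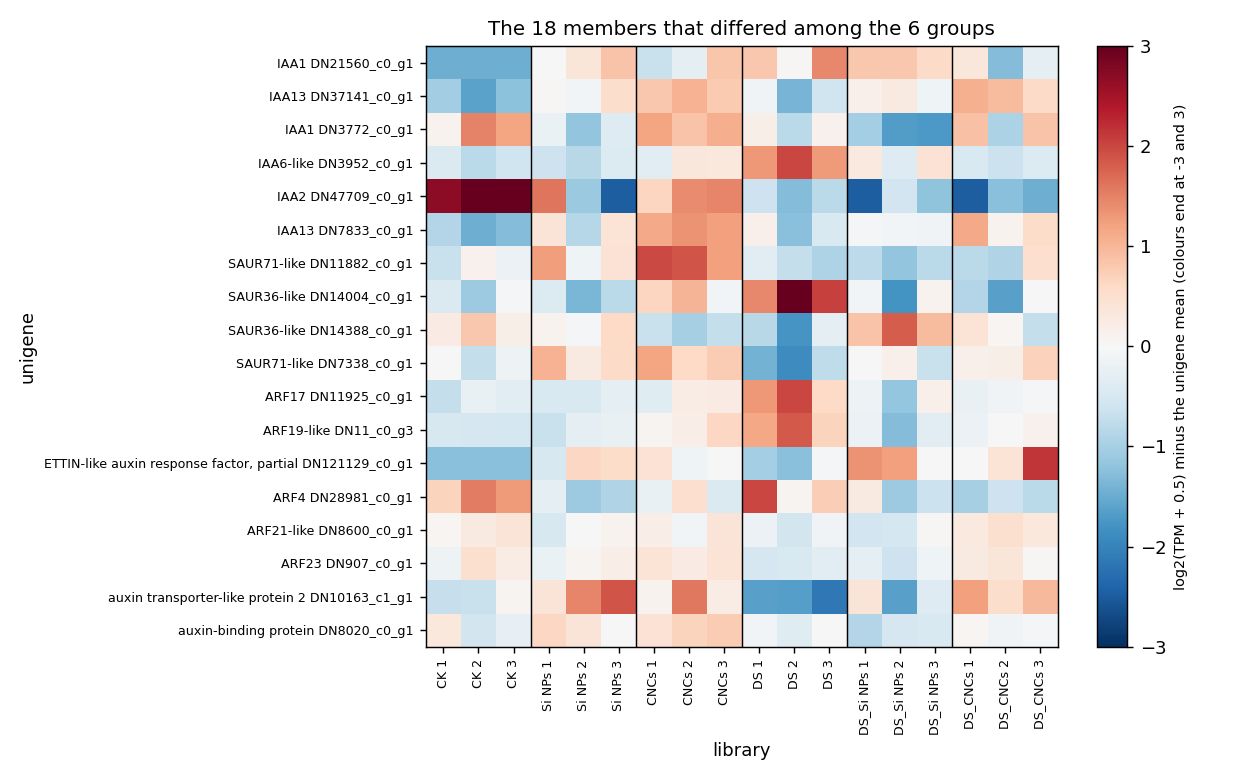
Levels of the 18 members that differed among the 6 groups (rows) in the 18 libraries (columns, black lines between groups), as log2(TPM + 0.5) minus the mean of the unigene. Red is above and blue below that mean. IAA6-like, ARF17, ARF19-like and SAUR36-like DN14004_c0_g1 are highest in DS, and IAA2 DN47709_c0_g1 is highest in CK (17.4 to 56.1 TPM).

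The comparison of DS with CK asked what differed in droughted leaves. Of the 96 members, 6 (6.25%) were called, against 2.01% of all tested unigenes: IAA6-like, ARF17, ARF19-like, SAUR36-like DN14004_c0_g1 and SAUR71-like DN25772_c0_g1 rose, and IAA2 fell. The other 90 members did not pass, and the median log2 fold change of the 96 was -0.04 beside 0.00 over all tested unigenes. A few members in 3 families thus differed between DS and CK, without a shift of the whole set. By direction, 5 members (5.21%) rose, against 1.59% of all tested unigenes, and 1 fell, against 0.423%. By family, 2 of 31 Aux/IAA, 2 of 14 SAUR and 2 of 35 ARF members were called, and none of the 10 carriers, the 1 tested GH3 enzyme or the 5 others.

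IAA6-like DN3952_c0_g1, an Aux/IAA repressor whose rice counterpart IAA6 is known for drought tolerance and tillering, was at 24.3, 18.7 and 21.8 TPM in CK and at 82.5, 135 and 81.7 TPM in DS. Every DS library was above every library of the other 5 groups, which reached 44.7 TPM at most. The log2 fold change was 2.36 (SE 0.27, adjusted p = 0.000875), and the call was kept with each of the 18 libraries left out, at an adjusted p of at most 0.0125, without CK 3.

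ARF17 DN11925_c0_g1 was at 7.28, 10.4 and 9.56 TPM in CK and 31.3, 51.2 and 19.1 TPM in DS, a log2 fold change of 2.11 (SE 0.35, adjusted p = 0.00603). ARF19-like DN11_c0_g3, whose Arabidopsis and rice counterparts activate auxin target genes, was at 2.71, 2.63 and 2.59 TPM in CK and 9.41, 15.3 and 6.55 TPM in DS, a log2 fold change of 2.16 (SE 0.36, adjusted p = 0.00651). In both ARF members all 3 DS libraries lay above all other libraries of the series, and DS 2 was the highest. Leaving out DS 2 brought both log2 fold changes under 2, to 1.59 and 1.68, and leaving out CK 3 gave adjusted p values of 0.0464 for ARF17 and 0.0513 for ARF19-like, so the second of these calls was lost. ARF6-like DN11925_c0_g2, from the same assembly cluster as ARF17, averaged 5.08 TPM in CK and 4.88 TPM in DS and was not called.

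SAUR36-like DN14004_c0_g1, whose Arabidopsis counterpart SAUR36 is known to promote leaf senescence, was at 1.06, 0.49 and 1.53 TPM in CK and 5.23, 22.1 and 8.27 TPM in DS. SAUR71-like DN25772_c0_g1 was at 0.16, 0.61 and 0.37 TPM in CK and 3.74, 1.45 and 2.21 TPM in DS. In both, the groups did not overlap, but the levels in CK rest on few reads (40 and 16 counts over the 3 libraries). The log2 fold changes were 4.02 (SE 0.96, adjusted p = 0.0304) and 2.78 (SE 0.68, adjusted p = 0.0352). The first call was lost without any 1 CK library or without DS 2 (adjusted p up to 0.136). The second was lost without any 1 library of CK, CNCs or DS or without Si NPs 2 (adjusted p up to 0.167, without CK 3).

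IAA2 DN47709_c0_g1, a fragment of 260 bases, was at 17.4, 56.1 and 33.4 TPM in CK and 1.29, 0.62 and 1.08 TPM in DS. It was also low in the other 4 groups, where no library exceeded 7.92 TPM, so CK stood alone. The log2 fold change between CK and DS was -4.79 (SE 1.19, adjusted p = 0.0371), with 185 counts in CK and 5 in DS. The call was lost without any 1 library of CK, CNCs or DS (adjusted p up to 0.153). In the particle groups under normal water the log2 fold changes were -3.11 for Si NPs (adjusted p = 0.121) and -2.58 for CNCs (adjusted p = 0.207), neither of which passed.

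Over the whole comparison, 2 members were called without CK 3 (IAA6-like and ARF17) and 1 without DS 2 (IAA6-like). Of all tested unigenes 150 and 359 were then called, beside 1127 with every library. ARF23 DN907_c0_g1 was lower in DS (14.6, 15.0 and 16.3 TPM) than in CK (18.7, 29.0 and 24.3 TPM) at an adjusted p of 0.0452, but its log2 fold change of -0.48 was under the threshold. At the adjusted p alone 7 members passed, against 3.89% of all tested unigenes. GH3.4 was at 1.96, 3.45 and 1.76 TPM in CK and 4.22, 3.69 and 6.47 TPM in DS. Its groups did not overlap, yet the log2 fold change of 1.01 did not pass (SE 0.80, adjusted p = 0.528).

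**Figure D3:**
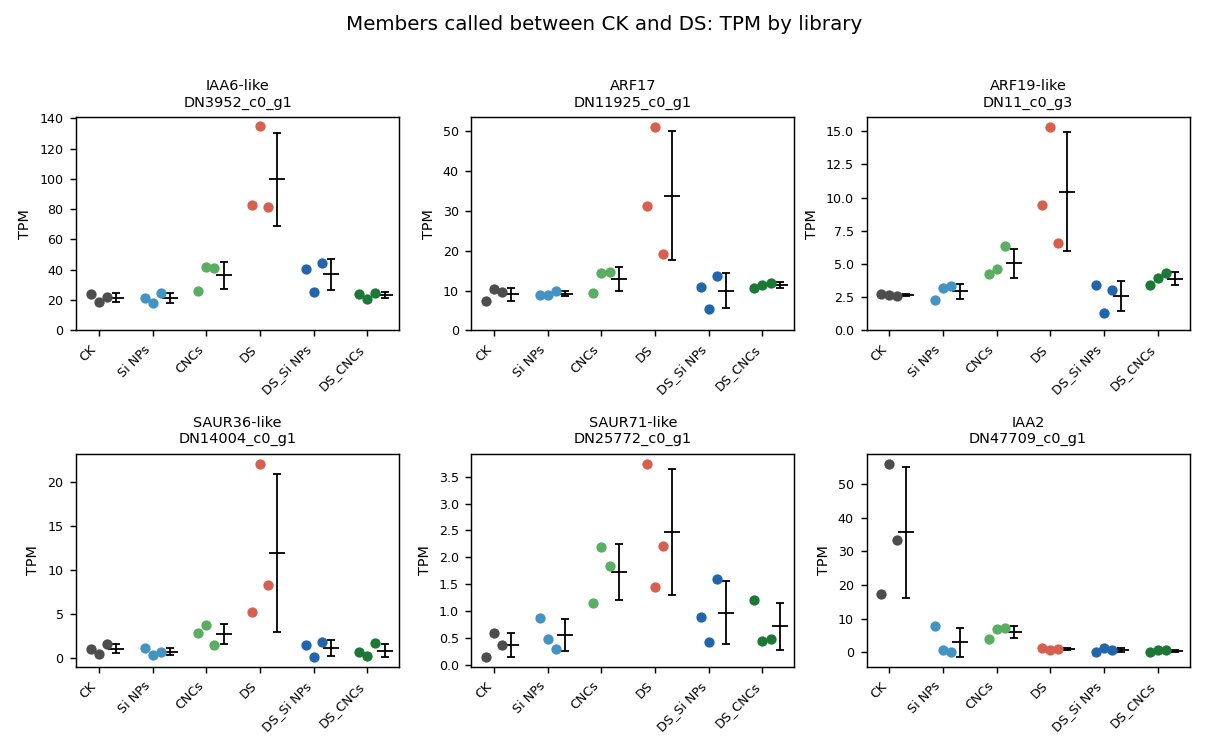
TPM of the 6 members called between CK and DS (vertical axes, from 0) in the 6 groups (horizontal axes). Points are libraries, and black marks are the mean and SD of 3 libraries. IAA6-like, ARF17, ARF19-like and SAUR36-like are higher in each DS library than in any other library, SAUR71-like overlaps between DS (1.45 to 3.74 TPM) and CNCs (1.16 to 2.19 TPM), and IAA2 is highest in CK (17.4 to 56.1 TPM).

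The next comparisons asked how each particle changed the droughted leaf. Between DS and DS_CNCs, 6 of 96 members (6.25%) were called, which is near the 5.8% of all tested unigenes, so the share says nothing particular of auxin genes. By direction, 2 members (2.08%) rose, against 3.48%, and 4 (4.17%) fell, against 2.32%. SAUR36-like DN14004_c0_g1, IAA6-like, ARF4 DN28981_c0_g1 and GH3.4 fell, while the influx carrier auxin transporter-like 2 DN10163_c1_g1 and the efflux carrier 5 DN12580_c0_g1 rose. The median log2 fold change of the 96 was 0.52, beside 0.10 over all tested unigenes, and the medians were 0.58 in Aux/IAA, 0.65 in SAUR, 0.45 in ARF and 0.65 in carrier members, but -1.17 in the 5 others and -3.89 for the 1 tested GH3 enzyme. Without DS 2, no member was called, and 832 of all tested unigenes were, beside 3245 with every library.

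IAA6-like was at 24.1, 21.0 and 24.8 TPM in DS_CNCs, within or next to the CK range and below all DS libraries. The log2 fold change from DS was -2.20 (SE 0.27, adjusted p = 0.000907). It was -1.89 without DS 2, which ended the call through the fold threshold alone, since the adjusted p was at most 0.00724 with any library left out. In DS_Si NPs the levels were 40.8, 25.2 and 44.7 TPM, again below all DS libraries, with a log2 fold change of -1.39 (SE 0.26, adjusted p = 0.0133) that was under the fold threshold.

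SAUR36-like DN14004_c0_g1 was at 0.65, 0.19 and 1.64 TPM in DS_CNCs and 1.51, 0.11 and 1.80 TPM in DS_Si NPs, below all DS libraries (5.23 to 22.1 TPM) and overlapping CK. It was the only member called in both particle groups under drought, and fell by 3.92 on the log2 scale with CNCs (SE 0.95, adjusted p = 0.021) and by 3.52 with Si NPs (SE 0.93, adjusted p = 0.0401). The CNCs call was lost without DS 2, DS_CNCs 1 or DS_CNCs 2 (adjusted p up to 0.0986). The Si NPs call was kept only without CK 2, Si NPs 1, DS 3, DS_CNCs 2 or DS_CNCs 3, and was lost without each of the other 13 libraries (adjusted p up to 0.174, without DS 2).

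The 2 ARF members that rose from CK to DS were lower in both particle groups than in DS without reaching the fold threshold. ARF17 was at 11.0, 5.27 and 13.7 TPM in DS_Si NPs and 10.6, 11.4 and 12.0 TPM in DS_CNCs, with log2 fold changes from DS of -1.77 (adjusted p = 0.0148) and -1.71 (adjusted p = 0.00967). ARF19-like was at 3.42, 1.30 and 3.07 TPM and 3.43, 3.93 and 4.35 TPM, with log2 fold changes of -1.99 (adjusted p = 0.0122) and -1.53 (adjusted p = 0.0177). The particle groups did not overlap DS in either gene. SAUR71-like DN25772_c0_g1 was at 0.89, 0.44 and 1.60 TPM in DS_Si NPs and 1.22, 0.46 and 0.49 TPM in DS_CNCs, with log2 fold changes of -1.23 (adjusted p = 0.237) and -1.84 (adjusted p = 0.082).

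GH3.4 DN9117_c1_g1, an enzyme that joins auxin to amino acids, was at 4.22, 3.69 and 6.47 TPM in DS and 0.83, 0.00 and 0.21 TPM in DS_CNCs. The groups did not overlap, and the log2 fold change was -3.89 (SE 0.91, adjusted p = 0.0181), from 220.9 to 18 counts over the group. The call was lost without DS 2 or DS_CNCs 3 (adjusted p up to 0.0521). In DS_Si NPs the values were 2.67, 0.26 and 2.17 TPM, a log2 fold change of -1.54 that did not pass (SE 0.81, adjusted p = 0.244). The other GH3 members (GH3.8, GH3.6 and GH3.11) had at most 9 counts in any library and were not tested.

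Both carriers that rose with CNCs under drought had low counts in DS (5 and 35.5 over the group). Auxin transporter-like 2 DN10163_c1_g1, an influx carrier of the AUX1/LAX type, had 5 counts over the 3 DS libraries (0.55, 0.54 and 0.24 TPM) and was at 7.15, 4.25 and 5.90 TPM in DS_CNCs. The log2 fold change was 3.51 (SE 0.79, adjusted p = 0.016), and the call was lost without any 1 DS library (adjusted p up to 0.0613). Efflux carrier 5 DN12580_c0_g1 was at 0.15, 0.71 and 0.37 TPM in DS and 1.27, 2.34 and 1.81 TPM in DS_CNCs, a log2 fold change of 2.63 (SE 0.74, adjusted p = 0.0387). That call was kept only without Si NPs 2 or a DS_Si NPs library and lost without each of the other 14 (adjusted p up to 0.129). In Arabidopsis, PIN5 lies in the membrane of the endoplasmic reticulum. SwissProt matched the unigene to the rice carrier component 8.

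ARF4 DN28981_c0_g1 was at 4.59, 0.83 and 1.62 TPM in DS and 0.13, 0.32 and 0.22 TPM in DS_CNCs, with a log2 fold change of -3.21 (SE 0.92, adjusted p = 0.0411). The call was lost without any 1 library of CK or DS_CNCs, without CNCs 1 or CNCs 3, and without DS 1 or DS 2 (adjusted p up to 0.162). It was low with particles under normal water too, at 0.54, 0.09 and 0.18 TPM in Si NPs against 1.52, 3.16 and 2.58 TPM in CK, where the log2 fold change of -2.87 did not pass (SE 0.91, adjusted p = 0.1). The far stronger ARF4 unigene DN5490_c0_g1 was at 42.0 to 49.2 TPM in DS and 38.8 to 52.3 TPM in DS_CNCs, ranges that overlapped.

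Beyond the called members, some strongly expressed ones passed the adjusted p between DS and DS_CNCs with smaller changes. SAUR71-like DN7338_c0_g1 was at 13.1, 9.21 and 20.9 TPM in DS and 39.2, 39.9 and 57.3 TPM in DS_CNCs, without overlap (log2 fold change 1.54, SE 0.33, adjusted p = 0.0133). ARF23 DN907_c0_g1 was at 25.3, 26.8 and 21.5 TPM in DS_CNCs (log2 fold change 0.58, SE 0.13, adjusted p = 0.0131) and ARF21-like DN8600_c0_g1 at 17.5, 20.2 and 17.8 TPM, against 12.5, 9.59 and 13.2 TPM in DS (log2 fold change 0.65, SE 0.16, adjusted p = 0.02). At the adjusted p alone 13 of the 96 members passed, against 9.47% of all tested unigenes.

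Between DS and DS_Si NPs, 2 of 96 members (2.08%) were called, below the 3.39% of all tested unigenes, and both are described as SAUR36-like. DN14004_c0_g1 fell, as given above, and DN14388_c0_g1 rose. The second was at 1.01, 0.29 and 1.67 TPM in DS and 4.31, 8.91 and 4.62 TPM in DS_Si NPs, and the groups did not overlap. Its log2 fold change was 2.73 (SE 0.55, adjusted p = 0.0158), and the call was lost without DS 2 or DS_Si NPs 2 (adjusted p up to 0.072). At the adjusted p alone 6 members passed, against 6.07% of all tested unigenes. In DS_CNCs DN14388_c0_g1 was at 3.07, 2.27 and 1.14 TPM, with a log2 fold change from DS of 1.02 (SE 0.53, adjusted p = 0.208). Thus these 2 unigenes with the same description changed in opposite directions in the same libraries. The photosynthesis list was higher in DS_Si NPs (87629 to 130783 TPM) than in DS (72149 to 85316 TPM) without overlap, and its part in these levels was not tested.

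Under normal water each particle changed few members. Between CK and Si NPs 1 of 96 (1.04%) was called, against 1.03% of all tested unigenes, and between CK and CNCs 1 of 96 (1.04%), against 0.377%. Both members were higher with the particle, the direction of 0.847% and 0.291% of all tested unigenes, and no member was lower with CNCs, against 0.0857%. At the adjusted p alone 2 members passed in each, against 1.46% and 0.641%. The medians of the 96 log2 fold changes were 0.15 and 0.19, beside 0.07 and 0.08 over all tested unigenes. No member was called in either comparison without CK 3. Of all tested unigenes 3 and 4 were then called, beside 574 and 211 with every library.

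IAA1 DN21560_c0_g1 rose with Si NPs. It had no counts in any CK library and 33, 43 and 10 counts in Si NPs (0.88, 1.26 and 1.99 TPM), which is at least 32.6-fold higher against a floor of 3 counts over the CK group (adjusted p = 0.0432). The call was kept only without DS 2, DS 3, DS_Si NPs 1, DS_Si NPs 2 or DS_CNCs 2, and lost without each of the other 13 libraries (adjusted p up to 0.182, without CK 3). CNCs had 17, 11 and 40 counts, and the difference from CK did not pass (adjusted p = 0.0636). In DS 14 counts gave 1.91, 0.92 and 3.24 TPM, so that TPM and counts did not rank the groups alike for this unigene of 8 transcripts.

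IAA13 DN7833_c0_g1 rose with CNCs. It was at 8.29, 5.43 and 6.10 TPM in CK and 35.4, 41.0 and 37.5 TPM in CNCs, without overlap, with a log2 fold change of 2.30 (SE 0.40, adjusted p = 0.0243). The call was lost without any 1 library of CK or CNCs (adjusted p up to 0.175, without CK 3). Si NPs lay between, at 20.7, 8.55 and 21.1 TPM (log2 fold change 1.52, SE 0.39, adjusted p = 0.0629). Under drought the same unigene was at 17.6, 6.34 and 11.3 TPM in DS and 35.4, 17.1 and 23.3 TPM in DS_CNCs, which overlapped (log2 fold change 1.02, adjusted p = 0.0988).

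A further IAA13 unigene, DN37141_c0_g1, the strongest Aux/IAA member, was at 16.8, 11.2 and 14.7 TPM in CK, 36.0, 33.2 and 51.6 TPM in Si NPs, and 61.9, 73.5 and 61.7 TPM in CNCs. In TPM both particle groups lay above CK, and CNCs above Si NPs. The fit on counts gave no such order of the particles, with a log2 fold change from Si NPs to CNCs of -0.06 (SE 0.30, adjusted p = 0.967). The adjusted p passed for Si NPs (log2 fold change 1.63, SE 0.31, adjusted p = 0.0289) and for CNCs (1.57, SE 0.31, adjusted p = 0.0402), but the fold threshold was not met, and without CK 3 the adjusted p values were 0.172 and 0.212. In DS it was at 32.7, 13.2 and 23.3 TPM and in DS_CNCs at 75.2, 68.9 and 52.7 TPM (log2 fold change 1.24, SE 0.31, adjusted p = 0.0239). Both of these IAA13 unigenes had their highest levels in the CNCs or DS_CNCs libraries. The other IAA13 unigene, DN37141_c0_g3 of the same assembly cluster, averaged 1.25 TPM and did not pass between CK and CNCs (log2 fold change 0.67, SE 0.69, adjusted p = 0.652). For CNCs against CK, the ratio of mean TPM in DN37141_c0_g1 was 2.21 on the log2 scale, larger than the 1.57 fitted on counts.

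SAUR members gave large ratios on few reads in CK. SAUR32-like DN7007_c0_g1, which the study itself listed, had 2, 1 and 2 counts in CK (0.18, 0.14 and 0.21 TPM). It was at 6.00, 0.33 and 5.01 TPM in Si NPs, 7.23, 4.13 and 12.6 TPM in CNCs, and 5.39, 5.33 and 6.59 TPM in DS. CK lay below all of these, but Si NPs 2, DS_Si NPs 2 (0.44 TPM) and DS_CNCs 2 (0.39 TPM) were near it. The ratio of counts per total was 23.0 for Si NPs (95% exact counting interval 9.52 to 72.2), 39.8 for CNCs (16.7 to 124) and 34.7 for DS, intervals that cover counting error only. None of the differences passed: the log2 fold changes were 4.50 (SE 1.39, adjusted p = 0.097), 4.99 (SE 1.41, adjusted p = 0.0967) and 5.06 (SE 1.41, adjusted p = 0.0587).

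Other particle levels under normal water did not pass either. SAUR71-like DN7338_c0_g1 was at 35.0, 21.3 and 31.8 TPM in CK, 74.0, 43.1 and 53.3 TPM in Si NPs (log2 fold change 1.21, adjusted p = 0.0714) and 80.6, 53.9 and 60.4 TPM in CNCs (0.83, adjusted p = 0.2). Efflux carrier 5b DN7823_c0_g1 was at 1.38, 1.83 and 1.70 TPM in CK, 4.16, 12.7 and 6.77 TPM in Si NPs (log2 fold change 2.33, adjusted p = 0.108) and 9.27, 12.7 and 11.8 TPM in CNCs (2.53, adjusted p = 0.111). Neither gene's particle libraries overlapped CK. That was common: 13% of all tested unigenes were higher without overlap in Si NPs than in CK, and 22.5% in CNCs. Among the 96 members 19 and 26 were. IAA1 DN3772_c0_g1 was at 33.0, 88.1 and 71.2 TPM in CK and 26.8, 13.3 and 23.5 TPM in Si NPs (log2 fold change -1.33, adjusted p = 0.116), with CNCs inside the CK range at 56.3 to 70.2 TPM. The ETTIN-like ARF fragment DN121129_c0_g1 had no counts in CK and 5, 14 and 12.6 counts in Si NPs (adjusted p = 0.0555).

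**Figure D4:**
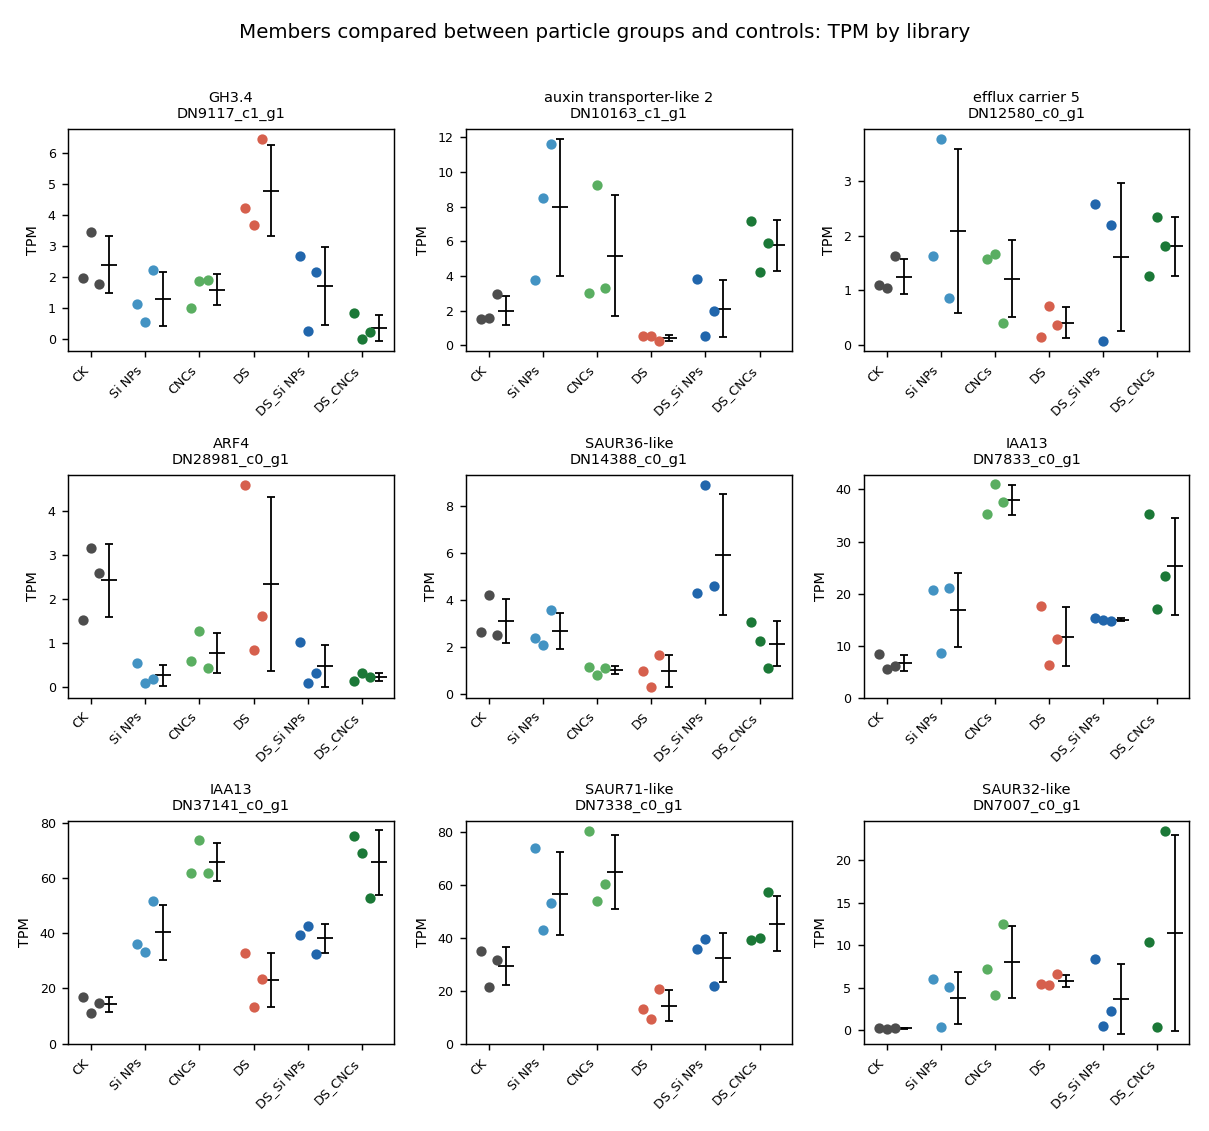
TPM of 9 members compared between particle groups and their controls (vertical axes, near 0 at the bottom) in the 6 groups (horizontal axes). Points are libraries, and black marks are the mean and SD of 3 libraries. GH3.4 is lowest in DS_CNCs (0.00 to 0.83 TPM), IAA13 DN7833_c0_g1 is highest in CNCs (35.4 to 41.0 TPM), and SAUR32-like spreads from 0.39 to 23.4 TPM within DS_CNCs.

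The 2 particles were also set against each other. Between Si NPs and CNCs no member was called in edgeR, against 0.0411% of all tested unigenes (0.0197% higher in CNCs), and between DS_Si NPs and DS_CNCs none was called, as among all tested unigenes (0%). At an unadjusted p below 0.05 there were 11 and 13 members, against 11.1% and 9.22% of all tested unigenes. DESeq2 called 1 and 0, and limma 0 and 1, without a share of all tested unigenes to set beside them. The lowest adjusted p values among members were 0.186 for IAA8-like DN3707_c0_g1, singled out here after its values were seen, under normal water, and 0.331 for IAA1 DN3772_c0_g1 under drought. The latter was at 15.0, 9.36 and 8.97 TPM in DS_Si NPs and 56.8, 15.7 and 56.6 TPM in DS_CNCs, a log2 fold change of 1.70 (SE 0.46) without overlap.

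**Figure D5:**
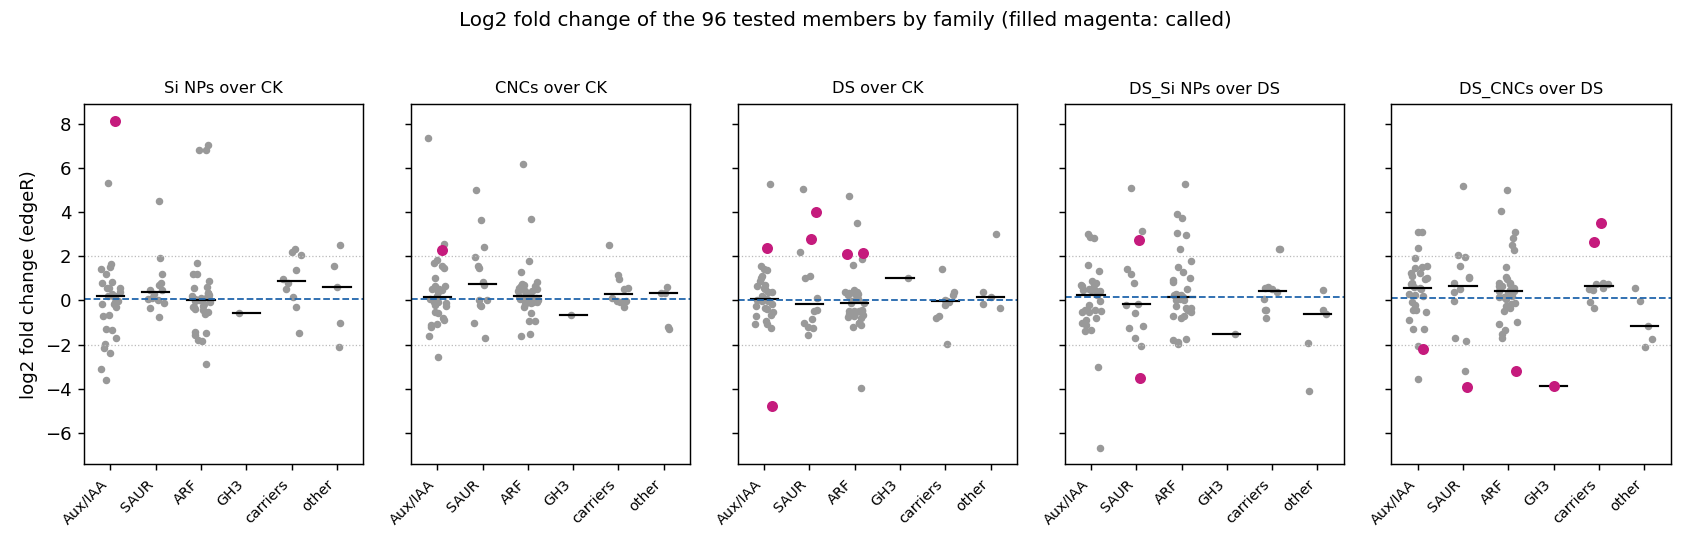
Log2 fold changes of the 96 tested members by family (horizontal axes) in 5 comparisons, second group over first. Magenta points are called members, black bars the family medians, the blue dashed line the median of all tested unigenes, and dotted lines the fold threshold of 2. Called members lie on both sides in DS over CK (5 up, 1 down) and in DS_CNCs over DS (2 up, 4 down).

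The interaction tests asked whether a particle acted differently under drought than under normal water, as the change from DS minus the change from CK. For CNCs, 5 of 96 members (5.21%) were called, against 1.96% of all tested unigenes, and all 5 were lower, the direction of 1.41%. They were IAA6-like (log2 difference -2.84, SE 0.37, adjusted p = 0.00167), ARF19-like (-2.35, SE 0.50, adjusted p = 0.0234), ARF17 (-2.12, SE 0.48, adjusted p = 0.0312), SAUR36-like DN14004_c0_g1 (-5.41, SE 1.28, adjusted p = 0.037) and SAUR71-like DN25772_c0_g1 (-3.82, SE 0.93, adjusted p = 0.0408). These are the 5 members that rose from CK to DS, and the tests share the CK and DS libraries. In CNCs libraries they were level with or above CK: IAA6-like was at 26.3, 42.0 and 41.1 TPM (log2 fold change 0.64, adjusted p = 0.21), ARF19-like at 4.25, 4.59 and 6.32 TPM (0.81, adjusted p = 0.241) and SAUR71-like DN25772_c0_g1 at 1.16, 2.19 and 1.85 TPM (1.98, adjusted p = 0.142).

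Only IAA6-like kept its interaction call with every library left out (adjusted p up to 0.0104). It was also the 1 call left without CK 3 and the 1 left without DS 2. Of all tested unigenes 285 and 534 were then called, beside 1099 with every library. ARF17 lost it without any 1 CK library, CNCs 2, CNCs 3, DS 2, DS_CNCs 1 or DS_CNCs 2 (adjusted p up to 0.0883), and ARF19-like without the same libraries other than CK 1 (up to 0.0778). SAUR36-like DN14004_c0_g1 lost it without any 1 library of CK or CNCs, Si NPs 3, DS 2, DS_CNCs 1 or DS_CNCs 2 (up to 0.103), and SAUR71-like DN25772_c0_g1 without any library other than DS_Si NPs 2 or DS_Si NPs 3 (up to 0.123).

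For Si NPs no member was called in the interaction, against 0.263% of all tested unigenes (0.0679% higher, and 0.42% at the adjusted p alone), and 20 members had an unadjusted p below 0.05 (16% of all tested unigenes did). DESeq2 called 5 and limma 0. Their shares of all tested unigenes are not given here, so members cannot be told apart from unigenes at large in these counts. The lowest adjusted p values were those of ARF19-like (log2 difference -2.35, SE 0.50, adjusted p = 0.0571), IAA6-like (-1.60, SE 0.37, adjusted p = 0.069) and ARF17 (-2.02, SE 0.48, adjusted p = 0.0747). SAUR36-like DN14388_c0_g1 had a log2 difference of 2.71 (SE 0.74, adjusted p = 0.105).

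Several strongly expressed members were not called in any of the 9 comparisons. ARF9 DN1465_c0_g1 stayed between 28.3 and 55.0 TPM over all 18 libraries. ARF3 DN1353_c0_g1, whose Arabidopsis counterpart ETTIN helps to set the upper and lower leaf faces, was at 16.9, 67.2 and 36.8 TPM in DS_CNCs and 22.9, 8.32 and 15.7 TPM in DS, a wide spread with overlap. SAUR50-like DN3008_c0_g1 was at 44.6, 44.9 and 41.4 TPM in CK and 26.04, 55.1 and 18.6 TPM in DS (log2 fold change -0.43, SE 0.33, adjusted p = 0.519). SAUR71-like DN11882_c0_g1 was at 4.61, 8.45 and 6.70 TPM in CK and 31.6, 29.6 and 18.7 TPM in CNCs, without overlap (log2 fold change 1.55, SE 0.53, adjusted p = 0.149). It was among the members that differed over all 6 groups (adjusted p = 0.045 in the F test).

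The strongest of the 5 other members was the auxin-binding protein DN8020_c0_g1, which binds auxin outside the nuclear pathway. It was at 16.2, 8.58 and 10.8 TPM in CK, 17.6, 20.6 and 22.1 TPM in CNCs, 12.1, 9.79 and 12.7 TPM in DS and 6.69, 8.91 and 9.23 TPM in DS_Si NPs. CNCs lay above CK and DS_Si NPs below DS without overlap, and neither comparison was called. The auxin amidohydrolase DN127891_c0_g1, matched by SwissProt to an ILR1-like hydrolase, was at 6.64, 1.72 and 3.64 TPM in CK and 0.00, 10.9 and 8.56 TPM in DS, which overlapped, and was called in no comparison. Auxin-induced protein 5NG4 DN24620_c0_g1 was at 0.00, 0.70 and 0.32 TPM in CK and 1.34, 3.30 and 4.2 TPM in DS, a log2 fold change of 3.03 with a wide error (SE 1.40, adjusted p = 0.247).

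Genes next to this pathway that the words of the rule do not catch were taken from a list of 64 unigenes, of which 43 were tested: auxin synthesis (YUCCA and tryptophan aminotransferases), receptors and corepressors, release and breakdown of auxin, and control of transport. Of these 43, 1 rose and none fell with Si NPs under normal water (1.03% of all tested unigenes were called), none was called with CNCs (0.377%), and 1 rose and 1 fell in DS (2.01%). Under drought 1 rose and 1 fell with Si NPs (3.39%), and 2 rose and 3 fell with CNCs (5.8%). In the CNCs interaction 2 were higher (WAT1-related DN5124_c0_g1 and DN7281_c0_g2) and 2 lower (DN9837_c0_g1 and DN6093_c0_g1), against 1.96%, and each of these 4 calls was lost without at least 7 of the 18 libraries. No synthesis, receptor or corepressor unigene was called in any of the 9 comparisons. In the test over all groups 11 of the 43 passed, 2 of the 8 synthesis unigenes among them, against 12.6% of all tested unigenes. The summed level of the 10 synthesis unigenes was 186 to 229 TPM in CK and 79.3 to 106 TPM in DS, and that of the 9 receptor and corepressor unigenes 43.3 to 46.1 TPM in CK and 21.8 to 31.3 TPM in Si NPs, both without overlap and with no test run on the sums. Auxin release and breakdown held most of the calls.

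ILR1-like 6 DN9837_c0_g1, a hydrolase that frees auxin from its amino acid conjugates, was at 5.07, 1.66 and 3.00 TPM in CK and 43.1, 50.1 and 14.9 TPM in DS. It was at 10.1, 5.09 and 7.33 TPM in DS_Si NPs and 3.1, 3.88 and 3.86 TPM in DS_CNCs, so DS lay above all other groups. It rose from CK to DS (log2 fold change 3.84, SE 0.68, adjusted p = 0.00819) and fell from DS with Si NPs (-2.68, SE 0.65, adjusted p = 0.0286) and with CNCs (-3.91, SE 0.68, adjusted p = 0.00466). The call with CNCs under drought held with every library left out (adjusted p up to 0.0272), the call between CK and DS was lost without CK 2 or CK 3 (up to 0.0653), and the Si NPs call without DS 1, DS 2 or DS_Si NPs 2 (up to 0.116). The DAO-like dioxygenase DN6093_c0_g1, of a family that oxidises auxin, was at 29.6, 40.1 and 9.25 TPM in DS and 0.57, 0.00 and 0.31 TPM in DS_CNCs (log2 fold change -6.70, SE 1.51, adjusted p = 0.0156), a call lost without DS 2 or DS_CNCs 2 (adjusted p up to 0.0583).

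ILR1-like 5 DN21823_c0_g1 had no counts in CK and was at 2.88, 6.57 and 0.66 TPM in Si NPs (adjusted p = 0.0492). It was at 0.00, 0.00 and 0.48 TPM in DS, 1.10, 6.26 and 7.53 TPM in DS_Si NPs and 3.56, 2.60 and 6.55 TPM in DS_CNCs, and rose from DS in both (adjusted p = 0.045 and 0.0444). These 3 calls were lost without 15, 16 and 15 of the 18 libraries, CK 3 and DS 2 among them (adjusted p up to 0.199, 0.165 and 0.151). WAT1-related DN7281_c0_g2, of a family that carries auxin out of the vacuole in Arabidopsis, fell from CK to DS, from 17.0, 6.94 and 10.3 TPM to 4.05, 2.06 and 1.94 TPM (log2 fold change -2.003, SE 0.48, adjusted p = 0.0329), and that call was lost without 12 of the 18 libraries, CK 3 among them (adjusted p up to 0.146). The remaining calls with CNCs under drought were ILR1-like 2 DN13760_c0_g1, which fell (adjusted p = 0.0454, lost without 15 libraries), and WAT1-related DN6042_c0_g1, which rose (adjusted p = 0.0407, lost without 12).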

How the data were processed

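The 18 leaf RNA-seq libraries form 6 groups of 3. Reads were trimmed (Cutadapt) and inspected (FastQC) by the authors, who then assembled transcripts with Trinity, annotated unigenes with DIAMOND and quantified them with Salmon. The authors deposited an estimated count and a TPM value (scaled for transcript length and library size) per unigene and library. The library type marks strand, but the setting used in quantification is not given in the sources used here. Of the estimated counts, 452055 were not whole and were rounded.

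Counts were tested over all unigenes together in edgeR 4.0.16 (quasi-likelihood test, TMM, R 4.3.3) in 1 fit over the 6 groups, with Benjamini-Hochberg adjustment over all tested unigenes. Members were called where the adjusted p was under 0.05 and the log2 change exceeded 2 in either direction. Levels are TPM. Alternatives were DESeq2 1.42.0, limma 3.58.1, edgeR's exact test, RLE scaling, other filters and thresholds, a replicate block, summed counts and leaving out each library. The test of CK against DS was also run on simulated counts with changes planted in DS, and the outcome is not reported here. The interaction tests and the F test were not run on simulated counts.

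Named were the 3 members of each family with the highest mean TPM, every called member (at most 8 per comparison) and SAUR32-like DN7007_c0_g1, which the study lists; 1 carrier that this rule names is not reported here. ARF23, ARF21-like, ARF6-like, IAA8-like, IAA13 DN37141_c0_g3 and the ETTIN-like fragment were added after their values were seen. Members and lists were chosen with earlier results of these data known.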

Additional observations from a re-analysis of the deposited data

Results flagged for a closer look

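The effect of CNCs differed between droughted and well-watered leaves in 5 of 96 members (5.21%), by the edgeR interaction test. Of all tested unigenes 1.96% were called, 1.41% as lower. All 5 members also rose from CK to DS, and both tests share the CK and DS libraries. The log2 difference (change under drought minus change under normal water) was -2.84 for IAA6-like DN3952_c0_g1, -2.35 for ARF19-like DN11_c0_g3, -2.12 for ARF17 DN11925_c0_g1, -5.41 for SAUR36-like DN14004_c0_g1 and -3.82 for SAUR71-like DN25772_c0_g1. The first had an adjusted p of at most 0.0104 with any library left out. The other 4 each lost the call without CK 3 and without DS 2, among other libraries.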

How the results depend on the processing

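None of the 21 member calls changed direction under the alternatives run, but their number depended on the tool. Changes of threshold reuse the same fit, so they could not change a direction. Summed counts matched 0 of the 21 calls and the filter of 5 TPM matched 7. Of the 21, 8 were weaker with no filter on low counts, 9 with limma and 5 with only the libraries compared. DESeq2 called 11 members between CK and Si NPs, 5 between CK and CNCs, 9 between DS and DS_Si NPs, 12 between DS and DS_CNCs, 1 between Si NPs and CNCs, 5 and 10 in the Si NPs and CNCs interactions, and 40 over all groups. Its shares of all tested unigenes in the first 4 were 7.59%, 5.17%, 9.49% and 12.6%, and 34.3% over all groups. The exact test of edgeR called 8, 5 and 5 in the first 3 of these. With no fold threshold the counts were 2, 2, 6 and 13 in the first 4, against 1.46%, 0.641%, 6.07% and 9.47% of all tested unigenes. With a log2 threshold of 1 they were 2, 2, 6 and 10. Fitting only the libraries compared gave 3, 5, 0 and 3. With no filter on low counts 0 were called between CK and Si NPs, 3 in the CNCs interaction and 11 over all groups. A mean of at least 5 TPM, which leaves out weak members, gave 0 between CK and Si NPs, 0 between DS and DS_Si NPs, 1 between DS and DS_CNCs and 2 in the CNCs interaction. With limma on log2 TPM the counts were 3 between CK and CNCs, 1 between DS_Si NPs and DS_CNCs and 2 in the CNCs interaction. Counts summed by description gave 2 between CK and Si NPs, 1 between DS and DS_Si NPs and 3 in the CNCs interaction. The cause of these differences was not tested. Where no share of all tested unigenes stands beside a count, here or with the replicate block, members cannot be told apart from unigenes at large.

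The replicate numbers did not pair the libraries: correlations of deviations ran from -0.0809 to 0.16 over 13 pairs of groups, none with every value over 0.1. With the replicate block the counts were 0 between CK and Si NPs, 1 between DS and DS_Si NPs and 3 in the CNCs interaction, and 13 of the 21 calls were kept.

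With single libraries left out, the counts ran from 0 to 2 for CK and Si NPs, 0 to 2 for CK and CNCs, 1 to 7 for CK and DS, 0 to 6 for DS and DS_Si NPs, 0 to 8 for DS and DS_CNCs, 0 to 2 for the Si NPs interaction, 1 to 6 for the CNCs interaction and 7 to 23 over all groups, and stayed at 0 in both comparisons of the particles with each other. Over all tested unigenes calls ran, in that order, from 3 to 859, 4 to 289, 150 to 1418, 144 to 2272 and 832 to 3802. For the interactions and over all groups they ran from 8 to 354, 285 to 1637 and 2567 to 7972. Depth limits weak members most: 25 of 121 had too few counts to test. The exact test was not run for the interactions or over all groups.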
